A study of Allium sativum with 18 samples.

Results

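A set of 7 gibberellin-related genes of garlic (Allium sativum) were followed across 18 RNA-sequencing libraries of developing bulbs. They are the 7 gene IDs of 57561 in the deposited expression table that the study printed as gibberellin genes in its figure on bulb enlargement, namely GA20ox Asa0G05638.1, GA3ox Asa3G02513.1, GA2ox Asa6G01479.1, BEL Asa6G01110.1 and the 3 FPF genes Asa3G03395.1, Asa5G04732.1 and Asa6G02235.1. All 7 were present in the table. The study chose them because they differed between bulbs under enlarging growth and bulbs before enlargement in these same libraries, so the stage differences given here describe the selection and carry no test. The differences between varieties averaged over both stages were not used to choose the genes, and these were tested.

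The libraries came from the 3 varieties Yuanjiangyangsuan, Ershuizao and Chalingzipisuan, each with 3 individuals under enlarging growth and 3 individuals before enlargement. The labels name no treatment for any group. All plants grew on 1 farm from an autumn planting, and bulbs before enlargement were taken a month earlier in spring than enlarging bulbs, so that stage, sampling month and plant age cannot be told apart. The deposited labels give leaf as the tissue and bulb in the stage, whereas the study describes parts of bulbs, and no table at hand pairs garlic gene IDs with names by which the tissue could be checked. A variety difference here is one between these 3 varieties, each read from 6 plants.

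Gibberellins are growth hormones made by a chain of oxidases. GA20ox and GA3ox carry out the last biosynthetic steps that yield the active hormone, and GA2ox inactivates it. The hormone acts by removing DELLA proteins, which hold growth back. In potato, the BEL1-like homeodomain transcription factor StBEL5 promotes tuber formation and, with a KNOX partner, binds the promoter of a GA20ox gene, and the garlic BEL gene is described by the study as its ortholog. FPF stands for flowering-promoting factor, a family of small proteins known from Arabidopsis and mustard, where high expression speeds flowering and resembles a gibberellin response.

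Expression was given as FPKM, the fragments per kilobase of gene, scaled to the total of the library, which allows levels to be compared between genes per length. Fragments on genes numbered 10340511 to 14117986 per library, as recovered from the steps of the FPKM values. The first principal component of all genes held 41.5% of the variance and set the 6 Yuanjiangyangsuan libraries apart from the other 12. The second held 28.2% and followed the stage in all but 1 library, replicate 3 of enlarging Chalingzipisuan, which lay at -52.1 among the libraries before enlargement. Results that rest on this library are given with and without it, save for correlations, which were computed with it only.

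The 7 genes covered almost the whole range of expression. GA20ox Asa0G05638.1 ranked 26th to 364th by group mean among the 41980 genes seen in any library, and held 75.9% to 89.7% of all fragments on the 7 genes in each library. At the other end, FPF Asa6G02235.1 had 0 to 22 fragments per library and GA2ox Asa6G01479.1 had 0 to 155. Of the 7, 5 had higher means under enlarging growth in every variety, GA3ox had lower means in every variety, and GA2ox went in different directions. The plot of levels by library shows each gene on its own scale.

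**Figure D1:**
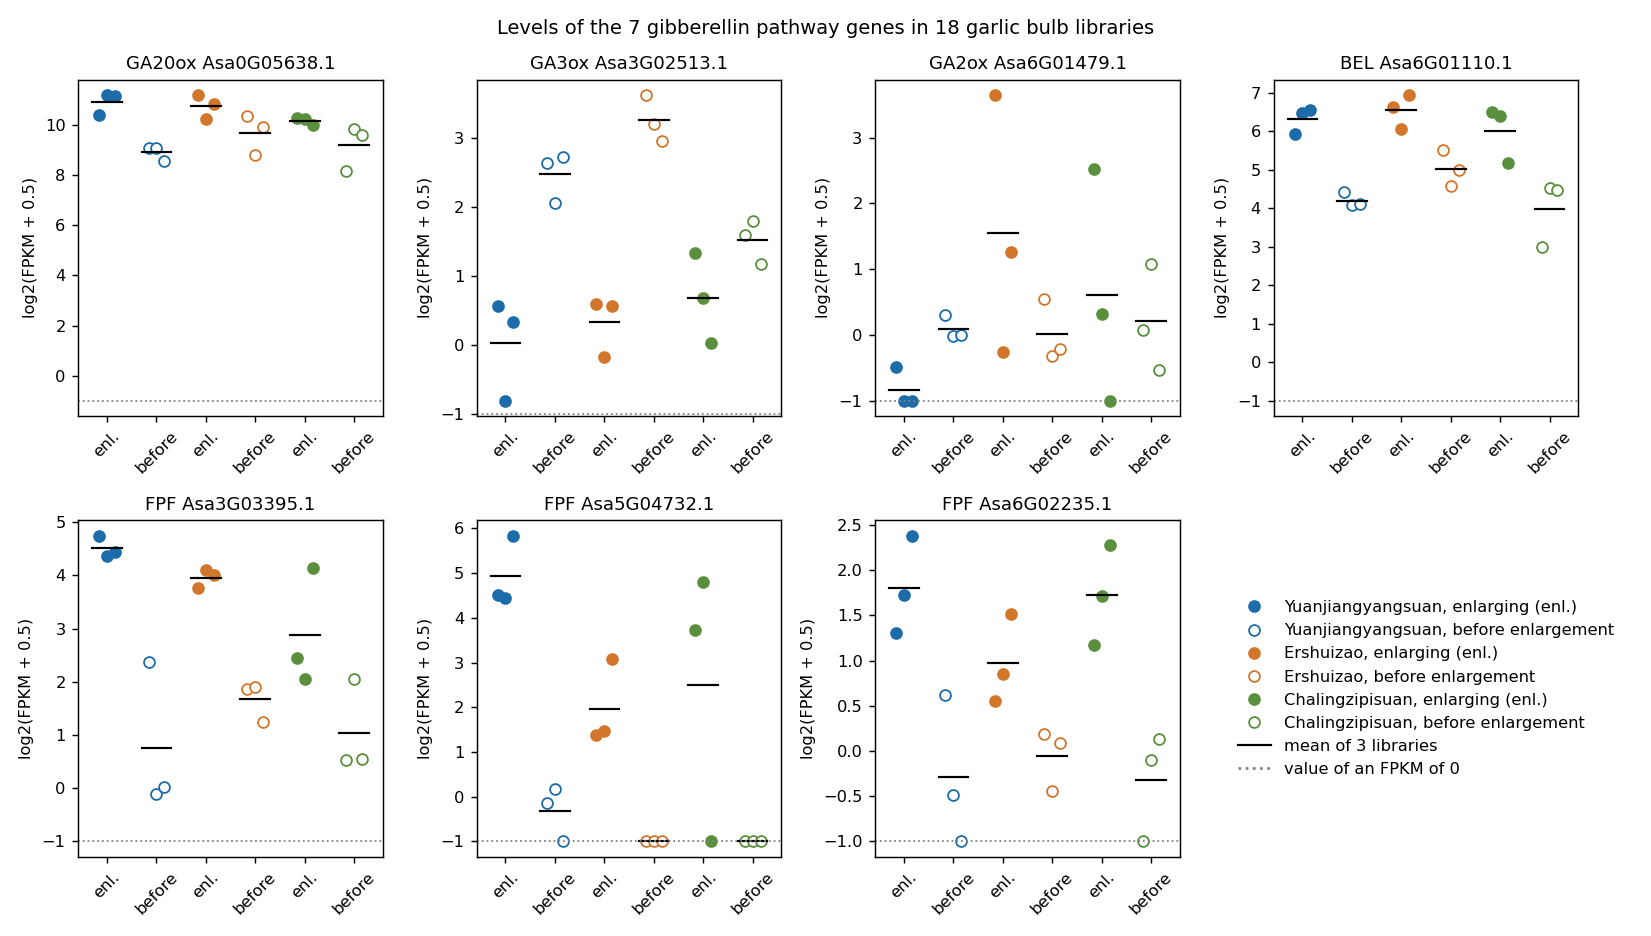
Level of each of the 7 genes as log2(FPKM + 0.5) on the vertical axis, in 3 libraries (points) of each variety under enlarging growth (filled) and before enlargement (open), with the group mean as a bar and an FPKM of 0 as a dotted line. GA20ox and BEL lay far above 0 in every library, GA3ox was lowest in the enlarging groups, and FPF Asa5G04732.1 was at 0 in all 6 libraries of Ershuizao and Chalingzipisuan before enlargement.

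GA20ox Asa0G05638.1, the biosynthetic oxidase with the highest level of the 7, was abundant at both stages. Enlarging Yuanjiangyangsuan bulbs had 1346, 2341 and 2302 FPKM, against 542, 548 and 380.5 FPKM before enlargement. The 2 groups did not overlap, and the log2 difference was 2.00 (SE 0.26). In Ershuizao, enlarging bulbs had 2342, 1221 and 1829 FPKM, against 1301, 449 and 974 FPKM before enlargement. Here the ranges overlapped, because replicate 1 before enlargement lay above replicate 2 under enlarging growth, and the log2 difference was 1.07 (SE 0.42), or 0.62 without replicate 2 before enlargement. Bulbs of Chalingzipisuan under enlarging growth had 1235, 1200.2 and 1019.8 FPKM, against 287, 907 and 784 FPKM before enlargement, all 3 above the highest bulb before enlargement, with a log2 difference of 0.96 (SE 0.45), or 0.44 without replicate 1 before enlargement.

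By group mean the order of GA20ox was enlarging Yuanjiangyangsuan (1996 ± 563 FPKM, SD, n = 3), enlarging Ershuizao (1797 ± 561), enlarging Chalingzipisuan (1152 ± 115), Ershuizao before enlargement (908 ± 430.1), Chalingzipisuan before enlargement (659 ± 328) and Yuanjiangyangsuan before enlargement (490.3 ± 95.1). Only the gap between enlarging Ershuizao and enlarging Chalingzipisuan exceeded the pooled SD of the neighbouring groups. Yuanjiangyangsuan thus held both ends of the order. The spread between bulbs of a group was far beyond counting error, with a variance 744 times that of counting alone. At 441 bases, the coding length recovered for this gene was less than that of the GA3ox (1083 bases), the GA2ox (999 bases) and the other GA20ox named by the study, Asa4G02474.1 (1080 bases).

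That other GA20ox, Asa4G02474.1, was near absent from these bulbs. It had 0 fragments in 13 of the 18 libraries and at most 2 in any other, so that no library exceeded 0.129 FPKM and the gene was too low to be tested. Of the 2 named GA20ox genes, Asa0G05638.1 thus held nearly all fragments.

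GA3ox Asa3G02513.1, which completes the active hormone, ran the other way and was highest before enlargement. Enlarging Yuanjiangyangsuan bulbs had 0.978, 0.0694 and 0.761 FPKM, against 5.73, 3.64 and 6.12 FPKM before enlargement, a log2 difference of -2.44 (SE 0.43). In Ershuizao, enlarging bulbs had 1.002, 0.385 and 0.980 FPKM, against 11.8, 8.75 and 7.23 FPKM before enlargement, a log2 difference of -2.94 (SE 0.32). In neither variety did the stages overlap. Bulbs of Chalingzipisuan under enlarging growth had 2.01, 1.099 and 0.514 FPKM, against 2.52, 2.97 and 1.76 FPKM before enlargement, where replicate 1 under enlarging growth lay inside the range before enlargement. The log2 difference there was -0.85 (SE 0.41), and without replicate 3 of the enlarging bulbs it was -0.52.

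Before enlargement the 3 varieties stood in the order Ershuizao (9.27 ± 2.34 FPKM), Yuanjiangyangsuan (5.16 ± 1.33) and Chalingzipisuan (2.41 ± 0.613; SD, n = 3 each), with each gap larger than the pooled SD of the 2 groups. The 3 enlarging groups had means of 0.603 FPKM in Yuanjiangyangsuan, 0.789 FPKM in Ershuizao and 1.21 FPKM in Chalingzipisuan, with gaps smaller than their spread. The variety with the highest GA3ox mean after the onset of enlargement was thus the one with the lowest mean before it.

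GA2ox Asa6G01479.1, the inactivating oxidase, was low in most bulbs and high in a few. Enlarging Yuanjiangyangsuan bulbs had 0.212, 0 and 0 FPKM, against 0.735, 0.484 and 0.504 FPKM before enlargement. These correspond to 3 fragments in all against 24, a ratio of 0.123 with an exact counting interval of 0.0237 to 0.405 that leaves out the spread between bulbs. In enlarging Ershuizao bulbs the values were 12.02, 0.334 and 1.90 FPKM, against 0.964, 0.304 and 0.364 FPKM before enlargement. Bulbs of Chalingzipisuan under enlarging growth had 5.24, 0.744 and 0 FPKM, against 0.558, 1.61 and 0.190 FPKM before enlargement. The stages overlapped in both of these varieties, and the high means of enlarging Ershuizao (4.75 ± 6.35 FPKM) and enlarging Chalingzipisuan (1.99 ± 2.83 FPKM) rested on replicate 1 of each. The log2 differences were 1.54 (SE 0.91) in Ershuizao and 0.40 (SE 0.92) in Chalingzipisuan, with 2.45 in Ershuizao without its replicate 2 under enlarging growth, and Chalingzipisuan gave 1.21 without its replicate 3 and -0.55 without its replicate 1 under enlarging growth.

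BEL Asa6G01110.1 was higher under enlarging growth in every variety, with no overlap of the stages in any. Enlarging Yuanjiangyangsuan bulbs had 60.1, 88.1 and 93.4 FPKM, against 21.0, 16.4 and 16.7 FPKM before enlargement, a log2 difference of 2.11 (SE 0.20). Bulbs of Ershuizao under enlarging growth had 98.1, 66.9 and 122.8 FPKM, against 45.3, 23.6 and 31.4 FPKM before enlargement, a log2 difference of 1.51 (SE 0.30). Enlarging Chalingzipisuan bulbs had 89.6, 83.5 and 35.5 FPKM, against 7.44, 22.5 and 21.6 FPKM before enlargement, a log2 difference of 2.03 (SE 0.53). The lowest enlarging value of Chalingzipisuan was that of replicate 3, and without it the difference was 2.45. Of the 6 groups, enlarging Ershuizao was highest (95.9 ± 28.0 FPKM, SD, n = 3) and Chalingzipisuan before enlargement lowest (17.2 ± 8.44 FPKM). The 3 enlarging groups came first, and Ershuizao led among the groups before enlargement with 33.4 ± 10.97 FPKM, above Yuanjiangyangsuan before enlargement (18.03 ± 2.55 FPKM) by more than the pooled SD.

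The 3 FPF genes differed widely in level, and each had a higher mean under enlarging growth in every variety. FPF Asa3G03395.1 had 26.3, 20.002 and 21.2 FPKM in enlarging Yuanjiangyangsuan bulbs, against 4.69, 0.423 and 0.513 FPKM before enlargement. It had 13.03, 16.6 and 15.5 FPKM in enlarging Ershuizao bulbs, against 3.16, 3.25 and 1.86 FPKM before enlargement. In both varieties the stages were well apart, with log2 differences of 3.75 (SE 0.64) in Yuanjiangyangsuan and 2.28 (SE 0.24) in Ershuizao. Bulbs of Chalingzipisuan under enlarging growth had 4.92, 3.64 and 17.0 FPKM, against 0.947, 3.63 and 0.969 FPKM before enlargement. The stages touched there, the lowest enlarging bulb and the highest bulb before enlargement being nearly equal, and the log2 difference of 1.83 (SE 0.67) was 1.199 without replicate 3.

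FPF Asa5G04732.1 was the gene with the sharpest contrast between stages. Enlarging Yuanjiangyangsuan bulbs had 22.3, 21.2 and 56.7 FPKM, against 0.401, 0.623 and 0 FPKM before enlargement. These are 474 fragments against 5, a ratio of 93.3 with an exact counting interval of 39.7 to 289 that leaves out the spread between bulbs. Replicate 3 under enlarging growth held 275 of the 474 fragments. Across groups, the variance between bulbs of a group was 33.9 times that of counting alone. Bulbs of Ershuizao under enlarging growth had 2.09, 2.25 and 7.97 FPKM, against 0 in all 3 bulbs before enlargement. With a floor of 3 fragments for each of these libraries, the mean of enlarging Ershuizao was 6.66 times the floor, a value that leaves out the spread between bulbs. Enlarging Chalingzipisuan bulbs had 12.8, 27.2 and 0 FPKM, against 0 in all 3 bulbs before enlargement, so the stages overlapped. The enlarging mean of 13.4 ± 13.6 FPKM (SD, n = 3) was 22.8 times the floor set in the same way. The value of 0 was that of replicate 3, the library that lay among those before enlargement, and without it the mean was 20.03 FPKM.

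FPF Asa6G02235.1 had the lowest mean of the family in enlarging bulbs of every variety, whereas before enlargement Asa5G04732.1 had the lowest mean in every variety. Bulbs of Yuanjiangyangsuan under enlarging growth had 1.98, 2.81 and 4.71 FPKM, against 1.04, 0.215 and 0 FPKM before enlargement. Enlarging Ershuizao bulbs had 0.966, 1.30 and 2.36 FPKM, against 0.643, 0.236 and 0.567 FPKM before enlargement. Bulbs of Chalingzipisuan under enlarging growth had 1.76, 2.78 and 4.34 FPKM, against 0, 0.435 and 0.593 FPKM before enlargement. No variety showed an overlap of the stages, and the log2 differences were 2.09 (SE 0.49) in Yuanjiangyangsuan, 1.02 (SE 0.36) in Ershuizao and 2.04 (SE 0.44) in Chalingzipisuan. With so few fragments, the variance between bulbs of a group was 1.92 times that of counting alone, the smallest excess among the 7 genes.

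The leading FPF gene was not the same in all enlarging bulbs, nor in all bulbs of 1 variety. In enlarging Yuanjiangyangsuan bulbs Asa5G04732.1 made up 44.0%, 48.2% and 68.6% of the summed FPKM of the 3 genes, and in replicate 1 Asa3G03395.1 led with 52.1%. In enlarging Ershuizao bulbs its share was 13.01%, 11.2% and 30.8%, below every Yuanjiangyangsuan bulb, and Asa3G03395.1 led with 80.99%, 82.4% and 60.1%. In enlarging Chalingzipisuan bulbs the share of Asa5G04732.1 was 65.7% and 80.9% in replicates 1 and 2 and 0% in replicate 3, where Asa3G03395.1 led with 79.7%. The coding lengths of the 3 genes were close, at 327, 333 and 321 bases. In replicate 3 of enlarging Chalingzipisuan, the other 2 genes were at their highest of all 6 bulbs of the variety, with 17.0 FPKM for Asa3G03395.1 and 4.34 FPKM for Asa6G02235.1.

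**Figure D2:**
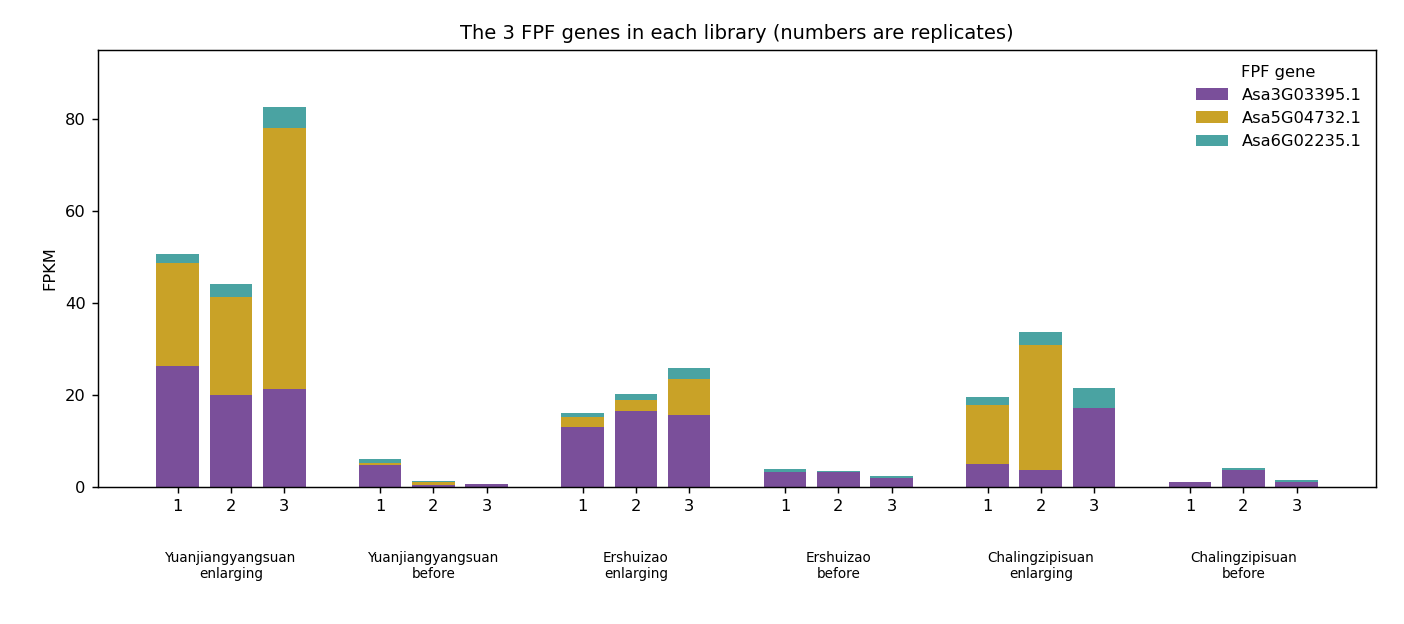
FPKM of the 3 FPF genes, stacked, in each of the 18 libraries (horizontal axis, replicates 1 to 3 of each variety and stage). Summed levels were 44.0 to 82.6 FPKM in enlarging Yuanjiangyangsuan, 16.1 to 25.9 FPKM in enlarging Ershuizao and 19.5 to 33.7 FPKM in enlarging Chalingzipisuan, and replicate 3 of enlarging Chalingzipisuan lacked Asa5G04732.1.

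The stage differences were set against the thresholds of the study, a p under 0.05 with more than 2-fold difference. Whether that p was adjusted is not given in the sources used here, and an unadjusted p was taken. The study obtained its p with the program DEseq and kept genes that differed in at least 2 of the 3 varieties. Here the program limma was used on log2 levels of FPKM with a filter on low values, and each variety was read on its own. Only the cut-offs are thus those of the study. In Yuanjiangyangsuan 6 of the 6 genes that passed the filter on low values were past them (27.4% of all genes tested), in Ershuizao 6 of 7 (13.0%) and in Chalingzipisuan 3 of 6 (11.7%). Nothing is read from these counts, since the genes were chosen on this contrast. Just inside the fold threshold lay Asa6G02235.1 and GA20ox in Ershuizao, with log2 differences of 1.02 and 1.07. Just outside it lay GA20ox in Chalingzipisuan at 0.96 and GA3ox in Chalingzipisuan at -0.85. GA2ox was past the thresholds in no variety in the fits used here. It was under the filter in Yuanjiangyangsuan, past only the fold threshold in Ershuizao and past neither in Chalingzipisuan. Whether GA2ox meets the study's own criterion was not tested. Whether the stage difference of a gene differed between varieties was not tested.

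**Figure D3:**
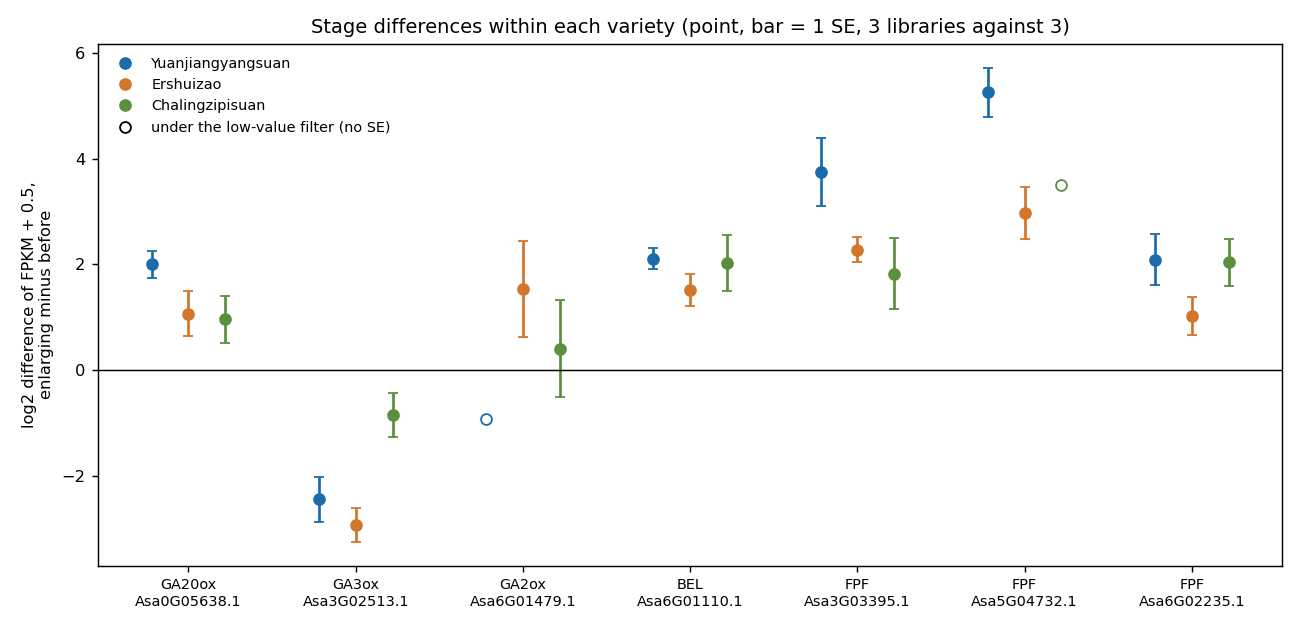
Log2 difference of FPKM + 0.5, enlarging minus before (vertical axis), for each of the 7 genes in the 3 varieties (points, bars of 1 SE, 3 libraries against 3). Points of GA3ox lay at -2.44, -2.94 and -0.85, those of BEL and the FPF genes all above 1, and open points mark values under the filter on low values.

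The level of these genes averaged over both stages was compared between varieties. The genes were not chosen on this contrast, though it draws on the same libraries as the stage differences. With limma on log2(FPKM + 0.5) over all 18 libraries, any difference between the 3 varieties was called, at a Benjamini-Hochberg adjusted p under 0.05, for 43.4% of the 33681 genes tested and for 0 of the 7 gibberellin genes. One of the 7, BEL, had an unadjusted p under 0.05 (0.0487, adjusted p = 0.0965). For the 3 pairs the calls were 0 of 7 between Yuanjiangyangsuan and Ershuizao, against 41.7% of all genes, 0 of 7 between Yuanjiangyangsuan and Chalingzipisuan, against 38.7%, and 0 of 7 between Ershuizao and Chalingzipisuan, against 2.56%. At an unadjusted p under 0.05 the counts were 1, 1 and 2 of 7 in these pairs. The shares of all genes at that unadjusted threshold are not given here, so nothing is read from such counts, in these pairs or within a stage. Voom, a count-based form of limma run on the recovered fragments, called 0 of 7 in each pair.

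The sizes of the differences were also set beside those of all genes. The median absolute log2 difference of the 7 genes was 0.53 between Yuanjiangyangsuan and Ershuizao, 0.25 between Yuanjiangyangsuan and Chalingzipisuan and 0.54 between Ershuizao and Chalingzipisuan, beside 0.48, 0.44 and 0.19 over all genes tested. The intervals were wide, as the plot of variety differences shows. For GA20ox, which the depth measured most finely, the log2 difference was -0.31 between Yuanjiangyangsuan and Ershuizao with a 95% interval of -0.96 to 0.34, 0.23 between Yuanjiangyangsuan and Chalingzipisuan (-0.41 to 0.88) and 0.54 between Ershuizao and Chalingzipisuan (-0.10 to 1.19). Each of these intervals reaches at least 0.88 from 0 in 1 direction.

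**Figure D4:**
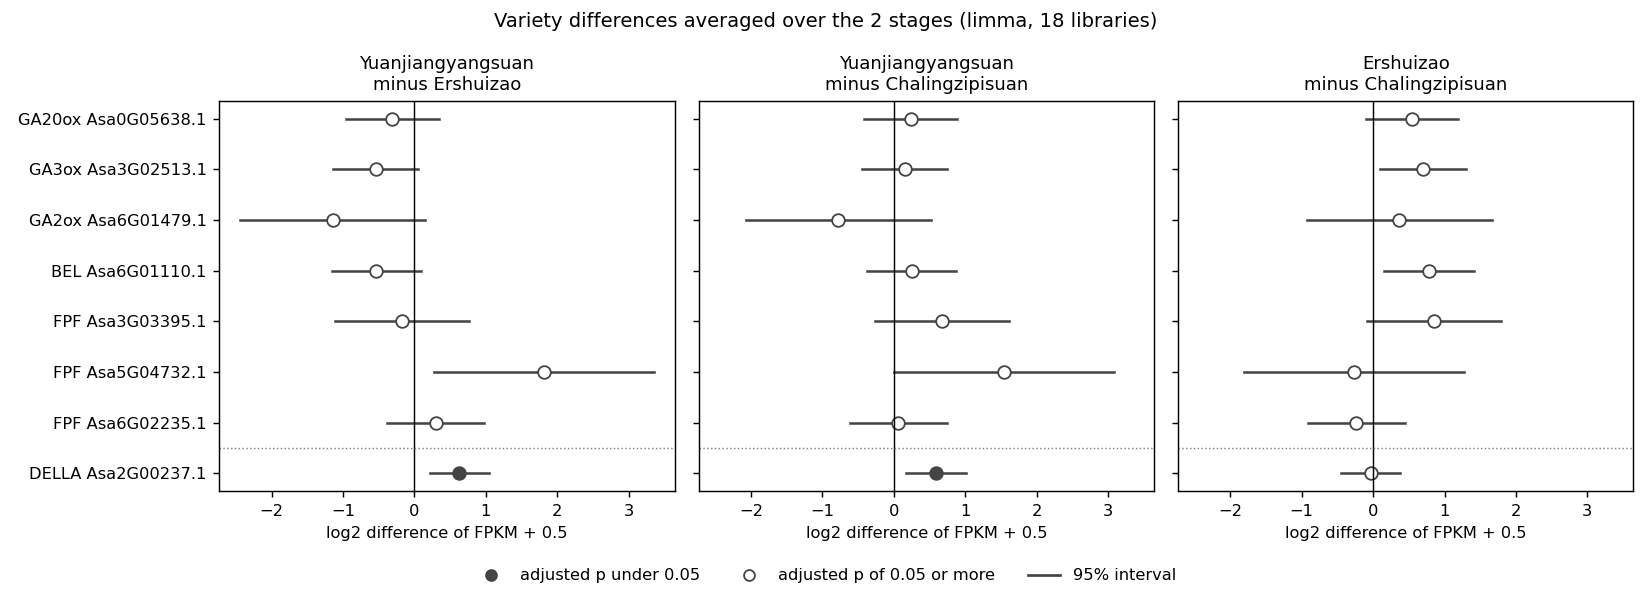
Log2 difference of FPKM + 0.5 between varieties, averaged over both stages (horizontal axis), for the 7 genes and, under the dotted line, the DELLA gene Asa2G00237.1. Points are estimates and lines 95% intervals from limma over 18 libraries. Filled points, which passed an adjusted p of 0.05, are those of the DELLA gene at 0.63 and 0.59.

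Among single genes, FPF Asa5G04732.1 had the largest variety difference, a log2 difference of 1.81 (SE 0.72, 95% interval 0.27 to 3.36, adjusted p = 0.0564) between Yuanjiangyangsuan and Ershuizao. It averaged 16.9 FPKM in Yuanjiangyangsuan and 2.05 FPKM in Ershuizao over the 6 libraries of each. Before enlargement the means were 0.341 and 0 FPKM, so the averaged difference comes mainly from the enlarging bulbs, which also make the stage difference. An exact two-sided permutation test within stages gave p = 0.02 for this difference, unadjusted for the 21 such tests of the 7 genes, where 0.005 was the smallest possible. It passed in 4 of 11 other settings, the permutation test included, and in 3 of 18 fits without 1 library, among them when only the 12 libraries of both varieties were fitted (adjusted p = 0.0016) or when replicate 3 of enlarging Chalingzipisuan was left out (adjusted p = 0.000465), a library of neither variety that enters the shared estimate of spread. Against Chalingzipisuan, the difference was 1.55 (SE 0.72, adjusted p = 0.107). It was 0.67 without that library, and 2.12 without replicate 2 of enlarging Chalingzipisuan, where it was called (adjusted p = 0.0187).

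BEL averaged 49.3 FPKM in Yuanjiangyangsuan, against 64.7 FPKM in Ershuizao, a log2 difference of -0.53 (SE 0.29, adjusted p = 0.163, exact permutation p = 0.04). It averaged 64.7 FPKM in Ershuizao, against 43.4 FPKM in Chalingzipisuan, a log2 difference of 0.78 (SE 0.29, adjusted p = 0.212, exact permutation p = 0.05). GA3ox averaged 5.03 FPKM in Ershuizao, against 1.81 FPKM in Chalingzipisuan, a log2 difference of 0.70 (SE 0.28, adjusted p = 0.255). None of these passed the adjusted threshold. For GA2ox, the averaged difference between Yuanjiangyangsuan and Ershuizao was -1.15 (SE 0.61, adjusted p = 0.149), with a 95% interval of -2.44 to 0.15. It rested on single libraries, being -0.62 without replicate 1 of enlarging Ershuizao and -1.60 without replicate 2 of enlarging Ershuizao, where alone among the 18 such fits it was called (adjusted p = 0.0335).

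Within a stage, the comparisons between varieties share libraries with the stage differences that chose the genes. Under enlarging growth, 2 of the 7 genes passed between Yuanjiangyangsuan and Ershuizao, where 31.6% of all genes did and the median log2 difference of all genes was -0.10. FPF Asa5G04732.1 was higher in Yuanjiangyangsuan, with 33.4 ± 20.2 FPKM against 4.11 ± 3.35 FPKM in Ershuizao (SD, n = 3), a log2 difference of 2.96 (SE 1.02, adjusted p = 0.0381). GA2ox Asa6G01479.1 was lower in Yuanjiangyangsuan, with 0.0707 ± 0.122 FPKM against 4.75 ± 6.35 FPKM in Ershuizao, a log2 difference of -2.38 (SE 0.86, adjusted p = 0.0470). Every Yuanjiangyangsuan bulb lay above every Ershuizao bulb for the first gene and below it for the second. For GA2ox the margin was narrow, with 3 fragments (0.212 FPKM) in the highest Yuanjiangyangsuan bulb and 4 (0.334 FPKM) in the lowest Ershuizao bulb. The GA2ox fragments were 3 against 184 in all, a ratio of 0.0148 with an exact counting interval of 0.00302 to 0.0439 that leaves out the spread between bulbs.

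Both calls depended on single libraries. That of GA2ox was lost in 14 of 18 fits that left out 1 library, and without replicate 1 of enlarging Ershuizao, which held 155 of the 184 fragments, the log2 difference was -1.33 (adjusted p = 0.237). That of Asa5G04732.1 was lost in 5 of 18 such fits, each without an enlarging library of Yuanjiangyangsuan or without replicate 1 or 2 of enlarging Ershuizao, with adjusted p up to 0.131. Its log2 difference stayed between 2.502 and 3.51 whichever library was left out.

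The other pairs under enlarging growth gave 0 calls of 7. Between Yuanjiangyangsuan and Chalingzipisuan (29.2% of all genes called) the 2 genes with an unadjusted p under 0.05 were Asa5G04732.1, at 2.42 (SE 1.02, adjusted p = 0.0919), and Asa3G03395.1, at 1.64 (SE 0.62, adjusted p = 0.0603). Asa3G03395.1 averaged 22.5 ± 3.37 FPKM in Yuanjiangyangsuan, against 8.53 ± 7.39 FPKM in Chalingzipisuan, and every Yuanjiangyangsuan bulb lay above every Chalingzipisuan bulb. Without replicate 3 of enlarging Chalingzipisuan its difference was 2.27 with an adjusted p of 0.0097, whereas that of Asa5G04732.1 was 0.67. Between Ershuizao and Chalingzipisuan (0.837% of all genes called) no gene of the 7 had an unadjusted p under 0.05.

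Before enlargement, 0 of 7 genes passed in any pair, where 30.7% of all genes did between Yuanjiangyangsuan and Ershuizao, 29.0% between Yuanjiangyangsuan and Chalingzipisuan and 1.07% between Ershuizao and Chalingzipisuan. The closest was GA3ox between Ershuizao and Chalingzipisuan, with 9.27 ± 2.34 FPKM against 2.41 ± 0.613 FPKM (SD, n = 3), every Ershuizao bulb being above every Chalingzipisuan bulb. Its log2 difference was 1.74 (SE 0.40, 95% interval 0.89 to 2.59) with an adjusted p of 0.05003, just over the threshold, and it passed in 7 of 10 alternative settings but in only 4 of 18 fits that left out 1 library (adjusted p up to 0.197). GA3ox was also higher in Yuanjiangyangsuan than in Chalingzipisuan, by 0.95 (SE 0.40, adjusted p = 0.0886), and lower in Yuanjiangyangsuan than in Ershuizao, at -0.79 (SE 0.40, adjusted p = 0.151). BEL differed by 1.04 between Ershuizao and Chalingzipisuan (SE 0.42, adjusted p = 0.349), and without replicate 1 of Chalingzipisuan before enlargement, at 7.44 FPKM, by 0.54.

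The genes whose groups of 3 did not overlap were also counted. Under enlarging growth, 3 of the 7 genes did not overlap between Yuanjiangyangsuan and Ershuizao (44.6% of all genes), 2 between Yuanjiangyangsuan and Chalingzipisuan (38.8%) and 0 between Ershuizao and Chalingzipisuan (12.2%). Before enlargement the counts were 2 (49.9%), 1 (42.4%) and 2 (19.3%) in the same pairs. These comparisons share libraries, and counts of 7 genes are too small to be set apart from the shares over all genes.

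Downstream of the hormone, the study named the DELLA gene Asa2G00237.1, a homolog of the rice gibberellin repressor SLR1. By the F test over varieties this gene was called, as were 43.4% of all genes tested. It had 1.61, 2.37 and 1.48 FPKM in enlarging Yuanjiangyangsuan bulbs and 1.25, 1.09 and 1.37 FPKM in Yuanjiangyangsuan bulbs before enlargement. It had 0.95003, 1.26 and 0.708 FPKM in enlarging Ershuizao bulbs and 0.803, 0.531 and 0.602 FPKM in Ershuizao bulbs before enlargement. Within each stage every Yuanjiangyangsuan bulb lay above every Ershuizao bulb. Chalingzipisuan bulbs had 0.752, 1.30 and 0.569 FPKM under enlarging growth, all below the Yuanjiangyangsuan bulbs and overlapping with Ershuizao, and 0.977, 0.408 and 1.15 FPKM before enlargement, overlapping with both other varieties. Between enlarging Yuanjiangyangsuan and enlarging Chalingzipisuan the gene was called, at a log2 difference of 0.77 (SE 0.28, adjusted p = 0.0469), but in only 5 of 18 fits that left out 1 library.

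Averaged over stages, the DELLA gene was higher in Yuanjiangyangsuan than in Ershuizao by a log2 difference of 0.63 (SE 0.19, adjusted p = 0.0170, exact permutation p = 0.005, the smallest possible) and higher than in Chalingzipisuan by 0.59 (SE 0.19, adjusted p = 0.0246, exact permutation p = 0.01). In absolute size both differences lay at the 59th percentile of all genes tested. By the F test the gene had an adjusted p of 0.0243, and this call was lost in 3 of 18 fits that left out 1 library (adjusted p up to 0.0805). Of the pair calls, the first held in all 18 such fits. The second was lost in 4 of them, without replicate 2 of enlarging Yuanjiangyangsuan, replicate 3 of Yuanjiangyangsuan before enlargement, replicate 3 of enlarging Chalingzipisuan or replicate 2 of Chalingzipisuan before enlargement (adjusted p of 0.0515 to 0.0687). The gene was read at 10 to 54 fragments per library, and its levels of 0.408 to 2.37 FPKM were low beside those of GA20ox and BEL. Its stage differences were 0.40 (SE 0.28) in Yuanjiangyangsuan, 0.35 (SE 0.29) in Ershuizao and 0.04 (SE 0.37) in Chalingzipisuan.

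The FT-like gene Asa6G06199.1, which belongs to the florigen family that controls tuber and bulb formation in potato and onion and which the study linked with gibberellin, was not among the genes that differed between varieties (F test adjusted p = 0.715). Enlarging Yuanjiangyangsuan bulbs had 12.6, 14.5 and 19.6 FPKM, against 4.30, 3.14 and 4.76 FPKM before enlargement, without overlap. In Ershuizao (5.68 to 15.7 FPKM under enlarging growth, against 4.25 to 8.86 FPKM before) and Chalingzipisuan (6.34 to 10.97 FPKM, against 0.352 to 8.60 FPKM before) the stages overlapped. Of the 3 related genes named by the study, 2 could be tested and 1, the DELLA gene, was called between varieties. By the F test 43.4% of all genes tested were called, and so few genes cannot be set apart from that share.

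Between the 7 genes, GA20ox and BEL varied most alike. Over the 18 libraries Pearson's r of their log2 levels was 0.921, and after removing the group means it was still 0.815, so that bulbs of 1 group with more BEL also had more GA20ox. These r values describe 18 points that share variety, stage and library, and carry no test. GA3ox ran against all other genes but GA2ox, with r from -0.71 to -0.57, and with GA2ox it had 0.09. Once group means were removed, however, GA3ox and GA2ox deviated together (r = 0.687). Among the FPF genes, Asa3G03395.1 and Asa5G04732.1 had r = 0.634 over all libraries but -0.47 within groups. That -0.47 includes replicate 3 of enlarging Chalingzipisuan, with 17.0 FPKM of Asa3G03395.1 and 0 of Asa5G04732.1, and was not computed without it. For Asa3G03395.1 and Asa6G02235.1 the values were 0.822 and 0.573.

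For each of the 7, the single most similar gene among the other 33680 tested was taken by Pearson's r of log2 levels over the 18 libraries. BEL was most like Asa3G00392.1 (r = 0.982) and had 321 genes with r above 0.9. GA20ox was most like Asa6G02890.1 (r = 0.961, 86 genes above 0.9), FPF Asa5G04732.1 most like Asa1G00763.1 (r = 0.975, 58 genes) and GA2ox most like Asa8G02088.1 (r = 0.940, 25 genes). FPF Asa3G03395.1 was most like Asa8G01405.1 (r = 0.940, 10 genes). Fewest genes above 0.9 were found for GA3ox, with only Asa0G00987.1 (r = 0.904), and for FPF Asa6G02235.1, with only Asa5G04597.1 (r = 0.918). Counting error lowers r where fragments are few, so these counts do not compare the patterns of the genes on equal terms. In bulk samples of this kind, fewer cells of a type and less RNA per cell cannot be told apart.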

How the data were processed

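Total RNA of garlic bulbs was sequenced in paired-end libraries, with 3 individuals of each variety and stage as replicates. The authors trimmed adapters, discarded reads of low quality, mapped the rest to the garlic genome by HISAT2 with its default settings, and deposited 1 table of FPKM values for every gene in every library, without pooling. The program that counted fragments and the use of strand are not given in the sources used here, so that reads of overlapping, antisense or near-identical genes (the 3 FPF genes may be such) could not be told apart. No genome or annotation was used, and gene families are as the study prints them. The deposited table holds no fold changes or p-values.

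FPKM values of a gene are whole multiples of the value of 1 fragment, and 99.7% of the values above 0 were resolved into whole fragments within a tolerance of 0.003. This gave 10340511 to 14117986 fragments on genes per library (81.6% to 90.5% of each library) and the coding lengths. Counting intervals are exact (Clopper-Pearson, 95%) and cover counting error only.

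Variety differences were tested with limma 3.58.1 (trend and robust moderation) in R 4.3.3 on log2(FPKM + 0.5), over all 18 libraries with 6 group means, for 33681 genes with an FPKM of at least 0.5 in at least 3 libraries. P-values were adjusted by Benjamini-Hochberg over all genes tested. A fold change on this scale understates the change of low genes. Stage differences were fitted within each variety in the same way on 6 libraries. Exact two-sided permutation tests rearranged variety labels within stages (400 arrangements). On simulated data for a 4-fold change in Yuanjiangyangsuan, 183 of 198 tested changed genes were called, and 13 unchanged genes were called among 29607. The simulation gave every gene the same spread, with no stage difference and no library apart from its group. It checks that the fit runs as meant and does not measure how often a difference in the gibberellin genes would be called. Alternatives were other pseudocounts, filters, scalings, a replicate block, no moderation by trend, voom on recovered fragments, only the libraries compared, and leaving out each library.

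The named genes are all 7 members, the 3 related genes in the text of the study and, for each member, the gene with the highest r. The members, lists and tests were chosen with earlier results of these data known.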

Additional observations from a re-analysis of the deposited data

How the results depend on the processing

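Values with and without each choice were compared for counts of genes called and for each gene named. Between Yuanjiangyangsuan and Ershuizao averaged over stages, the count of 0 of 7 became 1 with a pseudocount of 1 or quantile normalization and 2 with only the libraries compared or the exact permutation test (unadjusted), and 0 to 1 without single libraries. The F test and the pair Yuanjiangyangsuan and Chalingzipisuan gave 0 to 1 without single libraries. Under enlarging growth, the 2 calls between Yuanjiangyangsuan and Ershuizao became 1 with a pseudocount of 0.1 or 1, no filter, quantile normalization, the replicate block or voom, and 0 to 2 without single libraries. Between Yuanjiangyangsuan and Chalingzipisuan 0 became 1 with a pseudocount of 1, quantile normalization or voom, and 0 to 1 without single libraries, as between Ershuizao and Chalingzipisuan. Before enlargement, 0 became 1 between Yuanjiangyangsuan and Ershuizao with only the libraries compared (0 to 1 without single libraries), 1 between Yuanjiangyangsuan and Chalingzipisuan with a pseudocount of 1, quantile normalization or only the libraries compared, and 1 between Ershuizao and Chalingzipisuan with these, a minimum of 1 FPKM, the replicate block, no trend or voom (0 to 1 without single libraries).

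Over all genes, calls between Ershuizao and Chalingzipisuan averaged over stages went to 446 with only the libraries compared, against 862 (560 to 1063 without single libraries), and under enlarging growth to 38, against 282 (170 to 627). Before enlargement they were 197 to 803 without single libraries, against 362. Past the thresholds of the study, the genes of Ershuizao were 3 to 6 of the 7 and all genes of Chalingzipisuan 2142 to 6597 without single libraries. Voom on the recovered fragments called 14491 genes by the F test, against 14615.

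Directions turned only for differences that no fit called. Averaged over stages, GA3ox between Yuanjiangyangsuan and Chalingzipisuan (0.15) was -0.0197 with a pseudocount of 0.1 and -0.12 with voom, Asa3G03395.1 between Yuanjiangyangsuan and Ershuizao (-0.17) was 0.0578 with quantile normalization, and Asa5G04732.1 between Ershuizao and Chalingzipisuan (-0.27) was 0.0398 with a pseudocount of 0.1 and 0.12 with voom. Without single libraries, these ranged from -0.0108 to 0.36, -0.58 to 0.0452 and -1.15 to 0.30. Others that turned without a library were GA20ox between Yuanjiangyangsuan and Chalingzipisuan (-0.0237 to 0.39), GA2ox between Ershuizao and Chalingzipisuan (-0.16 to 0.85), Asa6G02235.1 between Yuanjiangyangsuan and Chalingzipisuan (-0.17 to 0.24) and the DELLA gene between Ershuizao and Chalingzipisuan (-0.17 to 0.0702). The causes were not tested. Replicate numbers only name the individuals: deviations from group means had a median correlation of -0.03 over 45 same-numbered pairs of libraries and 0.02 over 90 others. Under the block, Asa5G04732.1 had an adjusted p of 0.0533 between Yuanjiangyangsuan and Ershuizao under enlarging growth, 2 rather than 3 genes were past the thresholds of the study in Chalingzipisuan, and no other count of the 7 moved but those above. Depth limits all but GA20ox and BEL, with medians of 2.5 fragments per library for Asa5G04732.1 (0 in 8 libraries), 4.5 for Asa6G02235.1, 6.5 for GA2ox, 18.5 for Asa3G03395.1 and 28.5 for GA3ox.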

Other observations

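Deviations of the genes within groups were set beside the main stage axis of the whole transcriptome. The second principal component, which separated enlarging libraries from those before enlargement, was computed from all genes, these 7 included. The library with the lowest score of its group was also that with the least GA20ox in 6 of 6 groups and that with the least BEL in 5 of 6. The order of all 3 libraries was the same as that of the scores in 5 of 6 groups for BEL and in 3 of 6 for GA20ox. For FPF Asa5G04732.1 the lowest library was the same in 2 of 6 groups and the order in 0 of 6. No match was possible for it in Ershuizao or Chalingzipisuan before enlargement, where all 3 libraries were at 0, so its counts do not compare with those of GA20ox and BEL. Pearson's r between deviations from group means was 0.861 for BEL, 0.797 for FPF Asa5G04732.1, 0.584 for GA20ox, 0.569 for GA2ox, 0.365 for GA3ox, 0.133 for FPF Asa6G02235.1, -0.28 for FPF Asa3G03395.1 and 0.111 for the DELLA gene, over 18 libraries as a description with no test. With group means kept, so that the stage difference enters, r with the scores was 0.946 for Asa5G04732.1, 0.783 for Asa6G02235.1 and 0.711 for Asa3G03395.1. It was 0.899 for BEL, 0.829 for GA20ox, 0.166 for GA2ox, -0.64 for GA3ox and 0.481 for the DELLA gene. Replicate 1 of Chalingzipisuan before enlargement had the lowest score of all, -128, and also the lowest GA20ox (287 FPKM), BEL (7.44 FPKM) and FT-like (0.352 FPKM) values of the 18 libraries.

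With group means kept, all 3 FPF genes rose along that axis, but within groups they did not follow it alike. Replicate 3 of enlarging Chalingzipisuan, which scored -52.1 where the other enlarging bulbs of that variety scored 106 and 88.6, had no fragment of Asa5G04732.1, yet more Asa3G03395.1 and Asa6G02235.1 than either of those bulbs. The cause was not tested. The r of 0.797 between deviations of Asa5G04732.1 and the scores includes this library and was not computed without it.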
